A study of Mus musculus with 16 samples.

Results

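Dividing CD8 T cells of kidney allografts 1 week after transplantation were studied in droplet single-cell RNA-seq data from mice. In this assay mRNA molecules are tagged in droplets before they are amplified, and the tags, unique molecular identifiers (UMIs), let copies of the same molecule be counted once. A cell was taken as dividing when it held at least 1 UMI of Cd8a or Cd8b1, the chains of the CD8 coreceptor, and UMIs of at least 2 of the 6 genes Mki67, Top2a, Birc5, Pclaf, Ube2c, and Stmn1. The rule was met by 6336 of the 15650 cells with a Cd8a or Cd8b1 UMI among 18651 cells of both CD8 graft data sets, 5697 of them in accepted and 639 in rejecting grafts. All CD8 data sets of the study together held 72639 cells. The remaining 8266 accepted and 1048 rejecting cells with a Cd8a or Cd8b1 UMI are called the other CD8 cells.

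Accepted grafts were kidneys of DBA/2J mice placed into B6 (C57BL/6) recipients, a pairing in which the graft survives without drugs. Rejecting grafts were kidneys of B6 mice placed into DBA/2J recipients. These pairings come from the study's text, while the labels give the strain C57BL/6J for every sample, both kinds of graft and the spleens of the rejecting recipients included. All mice were male, and the labels used here give no age. Cells were sorted as viable CD45+ leukocytes, and the authors named CD8 T cells by hand from Seurat clusters. Tags in the cell barcodes told apart 3 accepted libraries, numbered 1, 2, and 3, and 2 rejecting libraries, numbered 2 and 3. The methods describe the replicates as biological and the mice as individual samples, and they give as many replicates at 1 week as there are accepted tags. No source used here ties a tag to a mouse, so the p-values measure a spread between tags and not between mice. The direction of transplantation, the strain of the recipient, the library batch, and the gene set of the matrix cannot be told apart. The accepted matrix lists 19497 genes and the rejecting one 32285.

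A T cell that meets its antigen leaves quiescence, grows, copies its DNA in S phase, and separates the copies in mitosis. During S phase the cell makes histones to pack the new DNA, together with clamp, ligase, and helicase proteins of the replication fork. Genes of S phase are switched on largely by E2F factors. Genes of G2 and M phase often carry CHR and CCAAT elements in their promoters, through which the MuvB complexes and NF-Y act. Activated CD8 T cells also raise glycolysis, ribosome production, and sterol synthesis, and arm themselves with granzymes, the proteases delivered into target cells.

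The 6 genes of the rule cover different steps of this programme. Mki67 encodes the Ki-67 protein of mitotic chromosomes, Top2a a topoisomerase that untangles DNA, and Birc5 survivin, a subunit of the chromosomal passenger complex. Pclaf encodes a protein that binds the replication clamp, Ube2c a ubiquitin-conjugating enzyme of the anaphase-promoting complex, and Stmn1 a microtubule-destabilizing protein. For 5 of the 6 genes (all but Stmn1) RefSeq windows of GRCm38 covered the 250 bases before the transcription start. The windows of the 3 genes that held both elements are printed 5′ to 3′ on the strand of the gene. CHR (TTTGAA) and CCAAT matches on either strand are in capitals, to show where these letters lie. Ube2c lies at chr2:164769679-164769928 on the plus strand, Top2a at chr11:99024190-99024439 on the minus strand, and Mki67 at chr7:135716380-135716629 on the minus strand.
Ube2c: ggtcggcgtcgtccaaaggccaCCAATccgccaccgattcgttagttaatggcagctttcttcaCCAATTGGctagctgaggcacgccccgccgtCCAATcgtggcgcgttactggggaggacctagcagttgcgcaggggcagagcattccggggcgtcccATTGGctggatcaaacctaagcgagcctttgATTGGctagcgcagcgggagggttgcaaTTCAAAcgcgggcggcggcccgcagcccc
Top2a: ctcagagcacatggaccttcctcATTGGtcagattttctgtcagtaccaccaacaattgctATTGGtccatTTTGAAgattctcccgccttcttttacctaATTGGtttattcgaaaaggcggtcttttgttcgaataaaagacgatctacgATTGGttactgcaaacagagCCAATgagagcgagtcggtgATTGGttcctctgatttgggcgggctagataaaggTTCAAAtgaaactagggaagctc
Mki67: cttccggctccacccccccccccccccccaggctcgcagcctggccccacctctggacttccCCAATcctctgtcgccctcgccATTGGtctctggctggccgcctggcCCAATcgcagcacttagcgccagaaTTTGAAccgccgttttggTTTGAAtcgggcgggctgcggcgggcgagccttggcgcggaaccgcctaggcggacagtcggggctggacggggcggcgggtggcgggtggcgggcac
The CHR match nearest to the start lay 23 bases before it in Ube2c, 17 in Top2a, and 92 in Mki67. Pclaf held 2 CCAAT matches and no CHR match, and Birc5 held neither. Among all 32851 promoter windows of this length, 16.0% held TTTGAA and 33.8% held CCAAT. Among 37 windows of 35 genes of a list of 40 mitosis genes these shares were 37.8% and 81.1%. Among 27 windows of 23 genes of a list of 27 replication genes they were 11.1% and 59.3%. The E2F letters TTTGGCGC, TTTCCCGC, TTTGCCGC, and TTTCGCGC were found in 1.86% of all windows, in 18.5% of the replication windows, and in 5.41% of the mitosis windows. A match of letters is not a binding site.

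The share of CD8 cells that met the rule differed widely between libraries of the same model. Dividing cells made up 27.1%, 27.4%, and 54.2% of the CD8 cells of accepted libraries 1, 2, and 3. In rejecting libraries 2 and 3 they made up 15.1% and 66.8%. The lowest and the highest share were thus both in rejecting grafts, and the models overlapped. Dividing cells held more UMIs than their neighbors, with medians of 4252, 7321, and 3759 UMIs against 1747, 3251, and 1935 in accepted libraries and of 3033 and 3746 against 1671 and 2125 in rejecting ones. Since a deeper cell meets the rule more easily, each cell was also thinned to 1000 UMIs. The shares were then 16.5% (95% Clopper-Pearson interval 15.3 to 17.8), 13.8% (12.4 to 15.4), and 35.4% (34.1 to 36.7) in accepted libraries, and 8.32% (6.48 to 10.5) and 42.8% (38.4 to 47.2) in rejecting ones. The intervals cover counting error only, and the gaps from accepted library 3 to the other accepted libraries and between the rejecting libraries were far wider than they are, while the intervals of accepted libraries 1 and 2 overlapped. No test was made between the models, because the rule itself set the shares, and an exact permutation test of 3 libraries against 2 could not reach a p of 0.05.

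Fewer CD8 cells met the rule in spleens and at later times. At 1000 UMIs per cell, 1.59% to 6.85% of CD8 cells met the rule in the spleens of accepted recipients at 1 week and 2.10% to 6.06% in the spleens of rejecting recipients, which are labelled C57BL/6J although the recipient of that model is DBA/2J. In accepted grafts at 3 weeks the mean was 0.172% ± 0.045 (SD, n = 5 libraries). In naive spleen it was 0.0752% ± 0.109 (SD, n = 5). As a share of all CD45+ cells of their library, dividing cells of the CD8 data were 8.07%, 9.32%, and 23.9% in accepted grafts at 1 week. In rejecting grafts they were 2.66% and 7.55%, from 143 and 496 cells. The CD45+ data of the same rejecting libraries held 172 and 636 cells with UMIs of Cd3e, of Cd8a or Cd8b1, and of at least 2 rule genes. Some such cells thus lie outside the CD8 data, and the CD45+ data of accepted grafts were not read in this way.

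The same 6 genes were read in cells that are not CD8 T cells, to see how often they were met elsewhere in these libraries. Among CD45+ cells of rejecting libraries 2 and 3, at least 2 of them were found in 6.95% and 18.6% of macrophage-gated cells (UMIs of C1qa and Csf1r and none of Cd3 genes, median 2954 and 3258 UMIs) and in 10.0% and 56.6% of CD4-gated T cells. For CD8-gated T cells of the same data the shares were 14.6% and 67.2% (median 2005 and 3438.5 UMIs). Rejecting library 3 was therefore the higher one in each of these 3 gates. In B cells of naive spleen, which rarely divide, the share was 1.19% (median 2736 UMIs).

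**Figure D1:**
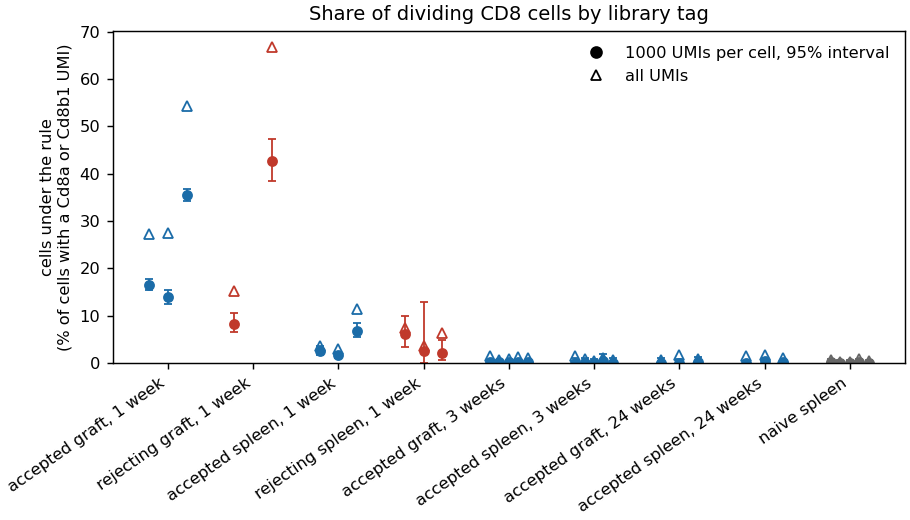
Share of CD8 cells that met the rule (y axis, percent of cells with a Cd8a or Cd8b1 UMI) in every library of each data set (x axis), as filled points with 95% Clopper-Pearson intervals at 1000 UMIs per cell and as open triangles with all UMIs. At 1000 UMIs the 5 libraries of 1-week grafts sit between 8.32% and 42.8%, and the highest share of a 1-week spleen is 6.85%.

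The T cell markers Cd3d and Cd3g, which the rule did not use, were present in these cells that the authors had already named CD8 T cells. Cd3d was detected in 83.2% to 99.3% and Cd3g in 91.6% to 99.7% of the dividing cells of each library. Cd8a, which is part of the rule, stood at 417 to 577 CPM in dividing and 532 to 775 CPM in the other CD8 cells. Here CPM is a gene's count in the summed cells of a library and state, scaled to the same total for every sum, so a gene can have fewer CPM in dividing cells while each cell holds as many of its UMIs. As the rule chose the cells, its genes are given without a test. Mki67 stood at 596, 409, and 580 CPM in dividing cells of accepted libraries and at 930 and 1118 CPM in rejecting ones, against 11.3 to 92.5 CPM in the other CD8 cells. Stmn1 stood at 1025 to 1210 CPM in accepted and at 532 and 451 CPM in rejecting dividing cells.

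Cells just inside the threshold stood above those just outside it in each library. Exactly 1 of the 6 genes was found in 749, 499, and 1315 cells of the accepted and in 149 and 92 cells of the rejecting libraries, and exactly 2 genes in 255, 154, and 695 and in 51 and 88 cells. The summed level of the replication list was 673 to 1406 CPM in cells with 1 gene and 1051 to 2732 CPM in cells with 2 genes. For the mitosis list the ranges were 569 to 891 CPM and 775 to 1727 CPM. With more rule genes the lists parted. Replication genes were highest in cells with 4 or 5 rule genes and lower in those with all 6 in each library, reaching 2911.6 CPM at 5 genes and 2314 CPM at 6 genes in accepted library 1. Mitosis genes rose to the last step in each library, from 4523 to 7165 CPM in that library.

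**Figure D2:**
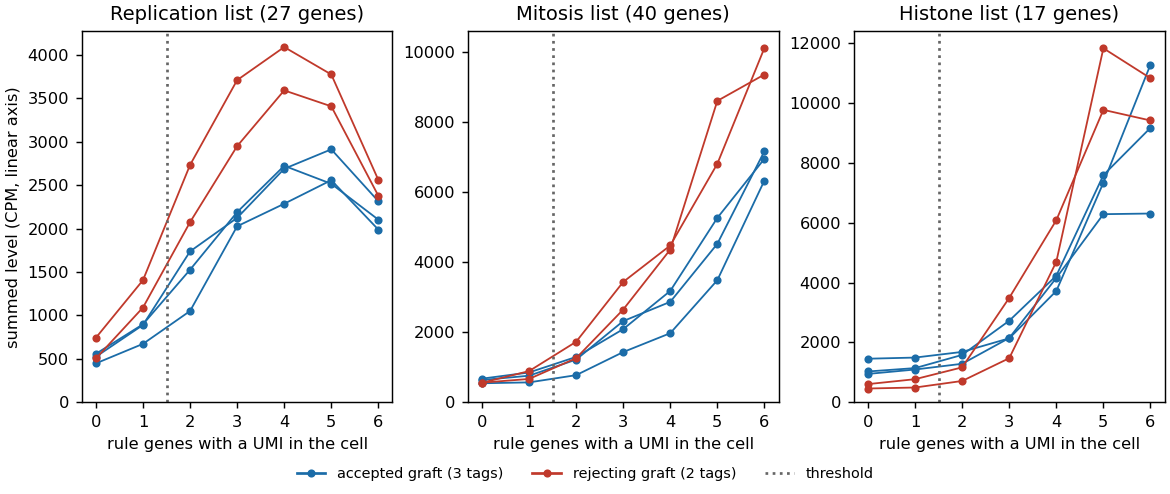
Summed CPM of the replication, mitosis, and histone lists (y axes) in cells grouped by how many of the 6 rule genes they held (x axis), with 1 line per library (blue, accepted; red, rejecting) and a dotted line at the threshold. Replication genes peak at 4 or 5 rule genes in all 5 libraries, and mitosis genes are highest at 6.

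Markers of other cells were present at low levels and moved with the groups. Cd4 was at 26.2, 14.5, and 11.8 CPM in accepted dividing cells and at 11.9, 3.91, and 5.76 CPM in the other CD8 cells, and none of the 2184 cells of the rejecting CD8 data held a Cd4 UMI. In the CD45+ data of the same rejecting libraries, 2.38% and 2.96% of the cells with UMIs of Cd3e and of Cd8a or Cd8b1 held a Cd4 UMI, so the 0 holds for the deposited CD8 cells and not for all such cells of these grafts. Foxp3, which defines regulatory T cells, was detected without Cd4 in 5.88%, 7.68%, and 3.34% of the accepted dividing cells that held no Cd4 UMI, against 1.39%, 0.920%, and 1.29% of the other CD8 cells. In rejecting libraries the shares were 2.10% and 1.81% against 0.999% and 1.21%. These shares were not matched for depth. With cells thinned to 1000 UMIs, and with or without Cd4, Foxp3 was detected in 2.01%, 2.14%, and 0.920% of accepted dividing against 0.682%, 0.202%, and 0.685% of other cells, and in 0% and 1.01% against 0.624% and 1.21% in rejecting libraries. The myeloid list summed to 280 to 362 CPM in accepted dividing and 247 to 422 CPM in accepted other cells, and to 343 to 758 and 551 to 785 CPM in rejecting ones. The B cell list ranged from 149 to 258 CPM over all groups, of which Ighm gave 143 to 224 CPM, and Ms4a1 was at 0 to 0.562 CPM. The kidney list reached at most 5.14 CPM. Hemoglobin and other erythroid RNA reached 78.9 CPM in the other cells of accepted library 1 and 336 CPM in those of rejecting library 2, and at most 18.9 CPM in dividing cells. A set of 8 genes of other lineages, Cd4 and Foxp3 among them, was also read. Cells with UMIs of these genes were 27.1% to 33.7% of dividing and 14.2% to 31.6% of other CD8 cells, not matched for depth. Without those cells 4261 genes were called in the accepted and 1465 in the rejecting comparison described next, against 4737 and 1979 with them. Between 0 and 13 cell barcodes were shared by a pair of libraries, over 10 pairs, and 5 of them were dividing in both.

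Dividing and other CD8 cells of the same library were compared by summing the UMIs of each and fitting edgeR's quasi-likelihood test with the library as a block. In accepted grafts 4737 of 12041 genes passed an adjusted p of 0.05 (Benjamini-Hochberg), or 39.3%. They were 2899 genes higher (24.1%) and 1838 genes lower (15.3%) in dividing cells. In rejecting grafts 1979 genes passed (16.4%), 1187 higher (9.86%) and 792 lower (6.58%). With so many genes called, a list was read against these shares. The split of accepted calls into higher and lower was 61.2% higher here, 50.5% with DESeq2 (1617 higher and 1586 lower), and 71.5% without the block. With every cell thinned to 1000 UMIs, 1801 and 494 genes passed. The rule was applied again to thinned cells, so cells that lost rule genes could move from the dividing to the other CD8 cells.

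The cell cycle lists followed from the rule and are given as a description. All 40 mitosis genes were higher in dividing cells of both models, with median log2 changes of 4.17 in accepted and 4.34 in rejecting grafts. Of 27 replication genes 27 and 24 were called higher (medians 2.29 and 1.96), and of 17 histone genes 17 and 16 (medians 2.55 and 3.71). The median over all genes was 0.03 and -0.02. Lig1, the ligase that joins replicated DNA, was at 180, 149, and 177 CPM in accepted dividing cells against 24.8, 18.7, and 37.4 CPM in the others. Nusap1, a spindle protein, was at 198, 155, and 216 CPM against 3.54, 2.38, and 8.86 CPM. Cenpa, the histone of centromeres, was already at 119 to 150 CPM in the other CD8 cells of accepted grafts and reached 359 to 439 CPM in dividing cells. Among the 5 highest genes of the accepted comparison outside the lists were Spc24, a kinetochore subunit, Cdca3, and Gmnn, the inhibitor of origin licensing, and in the rejecting comparison Cit, the citron kinase of cytokinesis, Diaph3, and Cenpp.

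Genes that hold T cells in quiescence were lower in dividing cells almost throughout. Of 14 measured quiescence genes 13 fell in accepted and 11 in rejecting grafts, and none rose, with median log2 changes of -0.55 and -0.69. Btg1, an antiproliferative factor, was at 481, 500, and 451 CPM in dividing and 919, 869, and 796 CPM in other cells of accepted libraries. In rejecting libraries it was at 1881 and 932 CPM against 4058 and 1760 CPM. Dividing cells were the lower ones in each library, 1.80-fold in accepted (log2 change -0.85 ± 0.05 SE, edgeR adjusted p = 6.1e-17) and 2.02-fold in rejecting grafts (-1.02 ± 0.07, adjusted p = 1.4e-14). Pdcd4, a translation inhibitor, fell by 0.57 and 1.17 on the log2 scale, and Pnrc1 and Zfp36l2 fell in both models. Txnip, an inhibitor of glucose uptake that was chosen after its values were seen, fell from 178 to 222 CPM to 93.7 to 117 CPM in accepted libraries (log2 -0.93, adjusted p = 4.1e-16).

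Naive and stem-like genes also moved in 1 direction. Of 15 genes 14 fell in accepted and 9 in rejecting grafts, and none rose (medians -0.80 and -1.39). Il7r, the receptor for the survival cytokine IL-7, was at 34.7, 37.1, and 67.8 CPM in dividing and 132, 103, and 163 CPM in other cells of accepted grafts. In rejecting grafts it was at 52.6 and 37.7 CPM against 185 and 126 CPM. The groups did not overlap, and the level was 2.83-fold and 3.41-fold lower (log2 -1.50 ± 0.08, edgeR adjusted p = 2.6e-18, and -1.77 ± 0.21, adjusted p = 2.0e-08). Klf2, a factor that keeps T cells circulating, was at 121, 148, and 131 CPM against 243, 223, and 201 CPM in accepted grafts (log2 -0.73, adjusted p = 4.9e-11). It was at only 2.10 and 8.33 CPM against 27.2 and 10.7 CPM in rejecting ones, where it did not pass (adjusted p = 0.059). Foxp1 fell in both models, and Foxo1 passed in neither (log2 -0.14 and -0.24). When thinned, 3 of the 13 naive and stem-like genes tested and 3 of the 14 quiescence genes passed in rejecting grafts, and Il7r was no longer called there (log2 -1.06, adjusted p = 0.10).

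The sterol and ribosome genes that changed were higher in dividing cells, and fewer of them were called in rejecting than in accepted grafts. All 13 sterol genes rose in accepted and 3 in rejecting grafts, and the medians were alike at 0.71 and 0.76. Fdps, the farnesyl diphosphate synthase, was at 95.1, 76.2, and 54.1 CPM against 37.8, 29.6, and 31.8 CPM in accepted libraries and at 35.8 and 39.7 CPM against 8.16 and 14.2 CPM in rejecting ones. Its log2 changes were 1.15 ± 0.09 (edgeR adjusted p = 2.5e-13) and 1.81 ± 0.41 (adjusted p = 0.0010). Of 18 genes of ribosome production and translation 14 and 11 rose and none fell. Ncl, the nucleolar protein nucleolin, was at 1174, 981, and 957 CPM against 682, 589, and 595 CPM in accepted libraries and at 1488 and 1341 CPM against 788 and 737 CPM in rejecting ones (log2 0.73 ± 0.05 and 0.89 ± 0.07). Eif5a, a translation factor, rose by 0.84 and 0.99 on the log2 scale. With thinned cells 6 sterol genes were called in accepted and 0 in rejecting grafts, and 8 and 2 ribosome genes. Without rejecting library 2 no sterol gene was called in rejecting grafts, and without rejecting library 3 the ribosome count there was 7.

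Genes of energy metabolism moved by smaller steps. Of 16 glycolysis genes 11 rose and 1 fell in accepted grafts, and 9 rose in rejecting grafts (medians 0.54 and 0.57). Ldha, the lactate dehydrogenase subunit, was at 605, 532, and 565 CPM against 304, 281, and 342 CPM in accepted libraries and at 417 and 543 CPM against 214 and 345 CPM in rejecting ones (log2 0.87 ± 0.06, edgeR adjusted p = 1.1e-15, and 0.79 ± 0.10, adjusted p = 2.4e-07). Gapdh rose 1.55-fold and 1.63-fold, and Pkm by 0.78 and 0.69 on the log2 scale. Of 18 genes of oxidative phosphorylation 17 and 16 rose, with medians of 0.42 and 0.50. Atp5b, the beta subunit of ATP synthase, rose by 0.57 and 0.64, while Cox8a differed by 0.11 and 0.04 and passed in neither model. With cells thinned to 1000 UMIs, none of the 16 glycolysis and none of the 18 oxidative phosphorylation genes passed in rejecting grafts, whereas 7 and 13 rose in accepted grafts. The medians were then 0.20 and 0.10 in rejecting and 0.27 and 0.30 in accepted grafts. Thinning also left fewer cells and smaller sums, with 65 and 213 dividing cells in rejecting libraries. Their sums were 65000 and 213000 UMIs against 475984 and 2044868 UMIs before. As the rule was applied again, rejecting library 3 went from 496 to 213 dividing and from 247 to 285 other CD8 cells. The parts of depth, of lost precision, and of this shift of cells between the groups were not told apart. Of 8 amino acid transporters 3 rose and 1 fell in accepted grafts, where 24.1% of all genes rose and 15.3% fell. None of them passed in rejecting grafts, where 9.86% of all genes rose and 6.58% fell. Slc38a2, the transporter with the highest level, differed by 0.00 and 0.08.

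**Figure D3:**
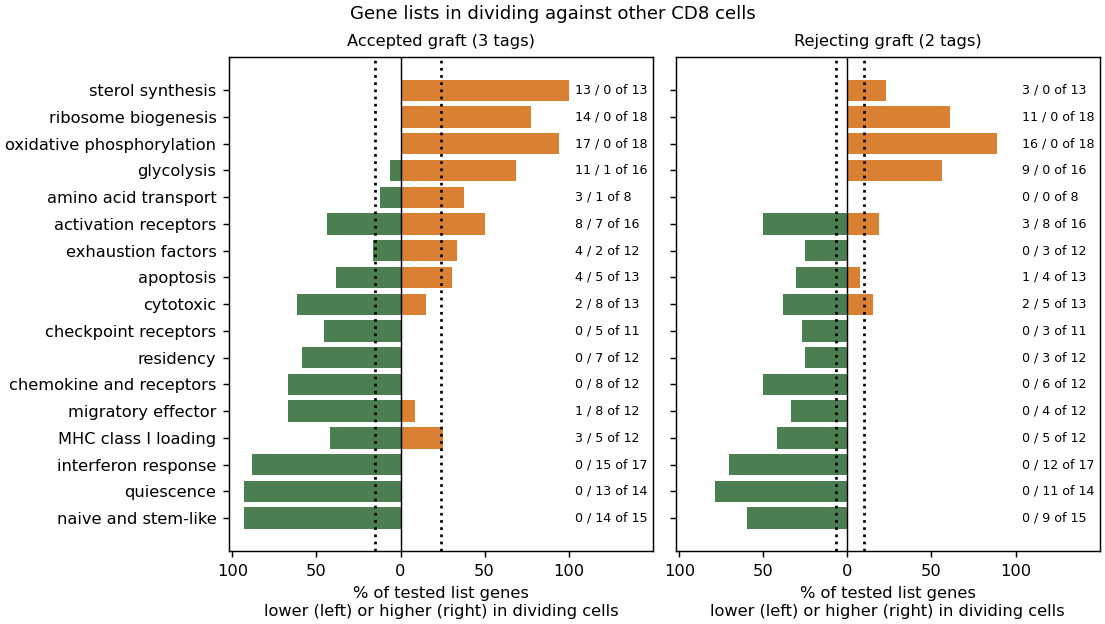
Share of the tested genes of each list (y axis) that were called higher (orange, right) or lower (green, left) in dividing than in other CD8 cells (x axis, percent), for accepted and rejecting grafts, with the counts higher, lower, and tested beside each bar and dotted lines at the shares of all genes. In both models no sterol, ribosome, or oxidative phosphorylation gene was called lower and no quiescence, naive, or interferon gene higher.

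The cytotoxic genes did not move together. Of 13 measured genes 2 rose and 8 fell in accepted grafts, where 24.1% of all genes rose and 15.3% fell. In rejecting grafts 2 of them rose and 5 fell, against 9.86% and 6.58% of all genes. Over all alternatives 1 to 2 rose and 2 to 9 fell in accepted grafts, and the rejecting counts were also smaller under some of them. Gzmb, the granzyme that triggers death of target cells, was at 869, 1060, and 774 CPM in dividing and 627, 698, and 575 CPM in other cells of accepted libraries. It was higher in all 3 libraries by 1.42-fold (log2 0.50 ± 0.07, edgeR adjusted p = 1.9e-07). In rejecting libraries Gzmb stood at 1206 and 1955 CPM against 1047 and 947 CPM (log2 0.63 ± 0.10, adjusted p = 7.0e-06). That rise rested on library 3, since without it the change was 0.20. Gzma was at 326, 197, and 358 CPM against 227, 207, and 237 CPM in accepted grafts, lower in library 2, and passed by edgeR (log2 0.36, adjusted p = 0.0015) and not by DESeq2 (0.25, adjusted p = 0.73). Nkg7, a protein of the lytic granule, went the other way, at 1860, 1858, and 1481 CPM against 2782, 2807, and 2055 CPM (log2 -0.55 ± 0.05, adjusted p = 7.8e-12). In rejecting grafts it fell by 0.24. Ctsw, a protease of cytotoxic cells, fell by 0.47 and 0.63 and kept its call under every alternative.

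The chemokine and receptor genes that changed were lower, with Ccl5 the furthest of the list in both models. Of 12 chemokine and chemokine receptor genes 8 fell in accepted and 6 in rejecting grafts, and none rose. Ccl5, which draws T cells and monocytes, was at 2262, 3032, and 1174 CPM in dividing and 7909, 10922, and 2661 CPM in other CD8 cells of accepted libraries. In rejecting libraries it was at 667 and 128 CPM against 3283 and 728 CPM. Dividing cells were lower in every library, 3.06-fold in accepted (log2 -1.61 ± 0.07, edgeR adjusted p = 1.8e-21) and 5.24-fold in rejecting grafts (-2.39 ± 0.11, adjusted p = 5.2e-19). Both calls held under every alternative. Ccl4, another chemokine, was at 423, 555, and 334 CPM against 670, 510, and 487 CPM in accepted grafts, higher in library 2, and fell by 0.96 in rejecting grafts. Xcl1, which attracts cross-presenting dendritic cells, passed in neither model (log2 0.12 and -0.27). Ifng, chosen after its values were seen, was at 144, 177, and 139 CPM against 209, 190, and 154 CPM in accepted libraries (log2 -0.25, adjusted p = 0.0050) and at 145 and 156 CPM against 186 and 347 CPM in rejecting ones (-0.88, adjusted p = 3.1e-05).

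The inhibitory receptors that changed were lower in CPM in dividing cells, which held more UMIs per cell. Of 11 measured genes none rose, and 5 fell in accepted and 3 in rejecting grafts (medians -0.19 and -0.29), where 15.3% and 6.58% of all genes fell. Without the block 1 fell in each model, with thinned cells 2 and 1, and without rejecting library 2 or library 3 the count in rejecting grafts was 1. Pdcd1, which encodes PD-1, was at 237, 254, and 276 CPM in dividing and 268, 271, and 340 CPM in other cells of accepted libraries (log2 -0.19 ± 0.06, edgeR adjusted p = 0.0062). In rejecting libraries it was at 593 and 494 CPM against 567 and 545 CPM, with the order of the groups changing between libraries (-0.04 ± 0.09, adjusted p = 0.85). The accepted call was lost under 5 alternatives, among them leaving out library 1 or library 3 and thinning the cells. Lag3 fell by 0.40 and 0.61 and was not called after thinning in either model. Ctla4 was at 223 and 200 CPM against 386 and 249 CPM in rejecting libraries. It fell there by 0.54 ± 0.12 on the log2 scale (edgeR adjusted p = 0.00067), and the call was lost without library 2 (-0.32). Entpd1, which encodes the ectonucleotidase CD39, was at 20.2 to 35.2 CPM and 22.2 to 30.7 CPM in accepted grafts and passed in neither model.

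Of the factors of the exhausted state some rose and some fell in accepted grafts, and 3 of 5 markers of CD4 and regulatory T cells rose in accepted grafts. Tox, a driver of exhaustion, was at 180, 167, and 145 CPM against 216, 193, and 159 CPM in accepted and at 886 and 1071 CPM against 1216 and 1436 CPM in rejecting libraries. It fell by 0.20 ± 0.06 and 0.44 ± 0.07 on the log2 scale (edgeR adjusted p = 0.0045 and 2.1e-05), and after thinning the rejecting change was 0.02 (adjusted p = 0.97). Of 12 such genes 4 rose and 2 fell in accepted grafts, where 24.1% of all genes rose and 15.3% fell, and 3 fell in rejecting ones, where 6.58% of all genes fell. With thinned cells 2 rose and 1 fell in accepted grafts and none passed in rejecting ones. Maf, a transcription factor of the same list that was chosen after its values were seen, was at 81.0, 45.7, and 36.5 CPM against 35.5, 15.6, and 21.4 CPM in accepted libraries (log2 1.15 ± 0.10, adjusted p = 8.3e-12). In rejecting libraries it was at 29.5 and 9.80 CPM against 66.0 and 10.7 CPM (log2 -0.86, adjusted p = 0.097), and these groups overlapped. The change in rejecting minus that in accepted grafts was -2.01 ± 0.36 (edgeR adjusted p = 0.0017). This call was lost without rejecting library 2 (-1.27) and without accepted library 1 (-1.98, edgeR adjusted p = 0.052). Without cells holding UMIs of other lineages the call was lost too (-1.41, adjusted p = 0.49). It was also lost with thinned cells, without the block, and with at least 3 rule genes. Over all alternatives the adjusted p ranged from 1.3e-06 to 0.73. Ikzf2, the Helios factor of regulatory T cells, was at 129, 115, and 115 CPM against 85.4, 73.5, and 95.7 CPM in accepted libraries (log2 0.49, adjusted p = 1.3e-06). This change was 0.33 without cells holding a Cd4 UMI (adjusted p = 0.00077), 0.19 with thinned cells (adjusted p = 0.37), and 0.06 without cells holding UMIs of other lineages (adjusted p = 0.65). In rejecting libraries Ikzf2 was at 126 and 185 CPM against 225 and 201 CPM (log2 -0.41, edgeR adjusted p = 0.049). The call was lost without library 2 (-0.12). Foxp3 rose in accepted grafts from 3.07 to 8.04 CPM to 13.5 to 24.8 CPM (log2 1.69, adjusted p = 5.3e-10), beside the Cd4 levels given above, and by 1.20 with thinned cells (adjusted p = 0.012) and 1.28 without cells holding a Cd4 UMI (adjusted p = 1.5e-06). Foxp3 was at 8.42 and 7.35 CPM in dividing cells of rejecting libraries against 5.44 and 5.34 CPM (log2 0.55, adjusted p = 0.73). Cd4 itself rose by 1.29 (adjusted p = 1.6e-08). Ctla4, an inhibitory receptor of regulatory and activated T cells, was at 232, 243, and 237 CPM against 215, 224, and 243 CPM in accepted libraries and did not pass (log2 0.06, adjusted p = 0.49), nor did Cd40lg (log2 1.05, adjusted p = 0.076). In rejecting grafts no cell held a Cd4 UMI, so Cd4 could not change there. None of the other markers rose in rejecting grafts, and Ikzf2 and Ctla4 fell. Without cells holding UMIs of other lineages none of the 3 genes still tested passed in accepted grafts, and that setting removes every cell with Cd4 or Foxp3.

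Genes of T cell activation, receptors and the kinase Lck among them, split into both directions. Of 16 genes 8 rose and 7 fell in accepted grafts, where 24.1% of all genes rose and 15.3% fell. In rejecting grafts 3 of them rose and 8 fell, against 9.86% and 6.58% of all genes. Over all alternatives 2 to 8 rose and 1 to 7 fell in accepted grafts, and the rejecting counts were also smaller under some of them. Cd3e was at 585, 569, and 458 CPM against 735, 671, and 530 CPM in accepted and at 2197 and 1857 CPM against 2805 and 2303 CPM in rejecting libraries (log2 -0.26 and -0.33). Lck, the kinase that starts the signal of the antigen receptor, fell by 0.30 and 0.48, and the costimulatory receptor Icos by 0.40 and 0.39. Il2rb, the beta chain of the IL-2 receptor, rose by 0.23 in accepted grafts (adjusted p = 0.0012), not with DESeq2 (adjusted p = 0.085), and was at 442 and 407 CPM against 354 and 399 CPM in rejecting ones. A few members named after their values were seen rose more. Il2ra, the alpha chain of the same receptor, was at 39.8, 36.1, and 60.7 CPM against 16.4, 18.4, and 36.6 CPM in accepted and at 103 and 86.7 CPM against 76.8 and 49.8 CPM in rejecting libraries (log2 0.93, adjusted p = 4.1e-10, and 0.59, adjusted p = 0.038). Tfrc, the transferrin receptor that brings iron into growing cells, rose by 0.86 and 1.02. Tnfrsf4, which encodes OX40, was at 148, 107, and 105 CPM against 57.6, 26.5, and 57.5 CPM in accepted libraries and at 25.3 and 21.6 CPM against 27.9 and 19.6 CPM in rejecting ones. The change in rejecting minus that in accepted grafts was -1.35 ± 0.47 and did not pass (edgeR adjusted p = 0.32).

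Most adhesion and homing genes that changed were lower in dividing cells. Of 12 tested genes of migratory effector cells 8 fell and 1 rose in accepted grafts, and 4 fell in rejecting grafts. Ly6c2, a surface marker of effector and memory cells, was at 174, 167, and 191 CPM against 491, 414, and 324 CPM in accepted libraries (log2 -1.17 ± 0.08, edgeR adjusted p = 6.9e-16). In rejecting libraries it was at 67.3 and 256 CPM against 126 and 534 CPM (-1.03 ± 0.16, edgeR adjusted p = 3.3e-06). Without library 3 the call was lost. Itga4, the alpha chain of the VLA-4 integrin, fell by 0.78 and 0.53. Of 12 residency genes 7 fell in accepted and 3 in rejecting grafts, where 15.3% and 6.58% of all genes fell. Itga1, the alpha chain of the collagen-binding integrin VLA-1, was at 50.6, 49.1, and 27.5 CPM against 75.6, 65.4, and 40.3 CPM in accepted and at 286 and 211 CPM against 495 and 306 CPM in rejecting libraries (log2 -0.51 and -0.66). No residency gene passed in either model after thinning, or without the block, where 2 migratory genes fell in accepted and none in rejecting grafts. Rgs1, a regulator of chemokine signaling, fell by 0.23 in accepted grafts and did not pass in rejecting ones.

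Interferon-stimulated genes were lower, with 15 of 17 tested genes called in accepted and 12 in rejecting grafts and none higher (medians -0.41 and -0.92). Ifi27l2a was at 385, 373, and 216 CPM against 495, 406, and 355 CPM in accepted and at 73.7 and 127 CPM against 110 and 422 CPM in rejecting libraries, lower in dividing cells of each (log2 -0.40 ± 0.08, edgeR adjusted p = 3.1e-05, and -1.49 ± 0.18, adjusted p = 3.9e-08). Without rejecting library 3 its change there was -0.58 and did not pass. Without rejecting library 3 only 2 of the 17 genes passed in rejecting grafts, and with cells thinned 4 of 13 passed in accepted and 2 of 13 in rejecting grafts. Class I antigen presentation moved less. B2m, the light chain of class I molecules, fell by 0.36 and 0.28, and H2-K1 by 0.30 and 0.35. Psmb8, an immunoproteasome subunit, rose by 0.17 in accepted grafts, not with DESeq2, and differed by 0.16 in rejecting ones (adjusted p = 0.20). Of 12 such genes 3 rose and 5 fell in accepted grafts, where 24.1% of all genes rose and 15.3% fell. In rejecting grafts 5 of them fell, against 6.58% of all genes.

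Genes that protect from apoptosis and genes that promote it were both among those lower. Bcl2, which protects from death, was at 110, 110, and 80.5 CPM against 157, 152, and 112 CPM in accepted and at 421 and 123 CPM against 567 and 258 CPM in rejecting libraries (log2 -0.48 and -0.69). Bcl2l11, which encodes the death-promoting protein BIM, fell by 0.49 and 0.60, and Mcl1, another protector, by 0.33 and 0.56. Bcl2a1b passed in neither model. Of 13 genes 4 rose and 5 fell in accepted grafts, where 24.1% of all genes rose and 15.3% fell. In rejecting grafts 1 of them rose and 4 fell, against 9.86% and 6.58% of all genes. Over all alternatives 0 to 5 rose and 3 to 6 fell in accepted grafts, and fewer fell in rejecting grafts under some of them.

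**Figure D4:**
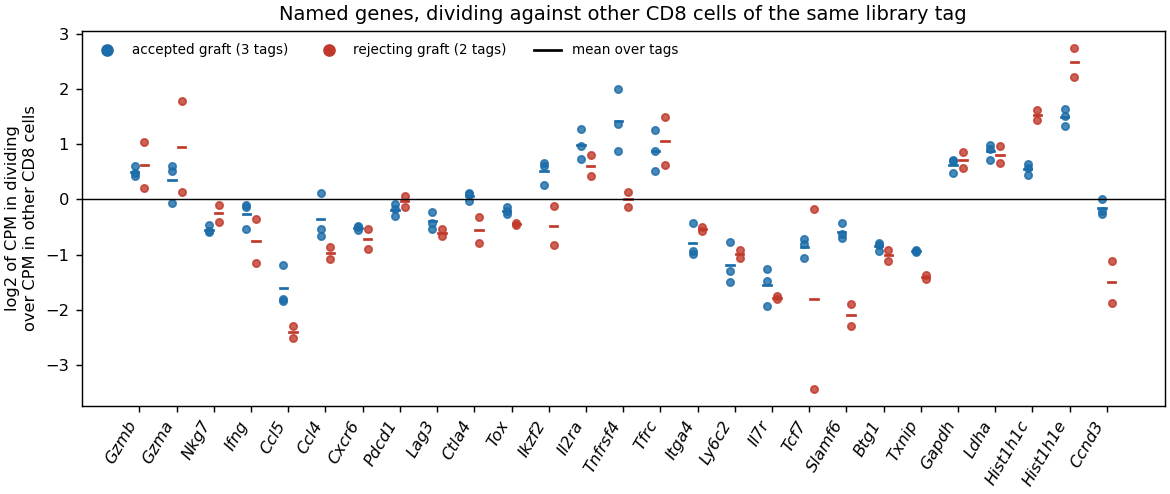
Log2 of the CPM in dividing over the CPM in other CD8 cells (y axis) for selected genes (x axis), with 1 point per library (blue, accepted; red, rejecting) and a bar at the mean of each model. Ccl5, Il7r, and Btg1 lie below 0 and Ldha above it in all 5 libraries, whereas Pdcd1 and Gzma have points on both sides.

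The change with division was then compared between the models, as the difference of both changes in the same fit. Only 58 of 12041 genes passed, or 0.482%, with 22 changing more upward (0.183%) and 36 more downward (0.299%) in rejecting than in accepted grafts. This count was unstable, with 4 genes without the block, 11 with thinned cells, 30 with DESeq2, and 98 without accepted library 3. At an unadjusted p of 0.05, 1028 genes passed. Of 22 named genes with a call, Cmss1, a nucleolar protein gene, was the one that kept it under every alternative. Its level was 27.9, 21.7, and 34.5 CPM in dividing and 12.5, 12.9, and 15.4 CPM in other cells of accepted libraries, and 1134 and 888 CPM against 1678 and 1255 CPM in rejecting ones. It therefore rose in accepted and fell in rejecting grafts (difference -1.58 ± 0.13, edgeR adjusted p = 2.8e-10), at levels that themselves lay far apart.

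Histone genes and Ccnd3 were also among the genes called. Of 17 histone genes 8 rose more in rejecting grafts and none less, a count that was 1 with thinned cells and 0 without the block. Hist1h1e, a linker histone, was at 1118, 1502, and 1026 CPM against 361, 597, and 360 CPM in accepted and at 812 and 965 CPM against 122 and 206 CPM in rejecting libraries (difference 1.01 ± 0.13, edgeR adjusted p = 6.7e-06). The libraries were nearer in dividing than in other cells. Hist1h1c differed by 0.97 and Hist1h1b by 1.20. Ccnd3, a cyclin of G1 phase, was at 66.9, 62.5, and 75.6 CPM against 80.4, 72.5, and 75.6 CPM in accepted libraries. In rejecting libraries it was at 213 and 124 CPM against 460 and 459 CPM, with a log2 change of -1.56 there and of -0.15 in accepted grafts, where it did not pass (difference -1.42 ± 0.15, adjusted p = 2.9e-07), and only the fit without the block lost the call (adjusted p = 0.091). Tcf7, the factor of stem-like T cells, fell more in rejecting grafts (difference -1.76, adjusted p = 0.015), and this rested on library 3. It was at 29.5 and 12.7 CPM against 33.3 and 137 CPM, and without library 3 the difference was 0.71. Slamf6 was at 14.7 and 36.2 CPM against 72.1 and 135 CPM in rejecting libraries and at 64.3 to 68.3 CPM against 92.1 to 105 CPM in accepted ones (difference -1.38, adjusted p = 0.00059), and it was not called with thinned cells.

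The dividing cells themselves were put into classes by the UMIs of both lists. A cell with at least 2 replication genes and fewer than 2 mitosis genes at 1000 UMIs was put into a replication class, and the reverse into a mitosis class. The replication class held 16.4%, 17.8%, and 13.3% of the dividing cells of accepted libraries and 20.3% and 14.7% of those of rejecting ones. The mitosis class held 30.6%, 30.6%, and 33.7% and 16.1% and 22.2%. Cells with both lists were 37.8%, 28.3%, and 39.1% and 39.9% and 54.0%, and those with neither were 15.2%, 23.3%, and 13.9% and 23.8% and 9.07%. At 1000 UMIs per cell the mitosis class was smaller in both rejecting libraries than in any accepted library. Without thinning this order did not hold, with 12.0%, 9.79%, and 11.8% in accepted libraries and 12.6% and 6.85% in rejecting ones. The rule genes are themselves biased to phases, the classes shift with the number of genes asked for and with depth, and no test was made. Among the other CD8 cells 76.1% to 84.3% in accepted and 71.3% and 81.8% in rejecting libraries held neither list. Other CD8 cells met the terms of the mitosis class as well, with means of 10.3% in accepted and 7.58% in rejecting libraries. Without thinning these means were 21.9% and 15.7%, above the 11.2% and 9.72% of the dividing cells, so the class is not particular to them.

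**Figure D5:**
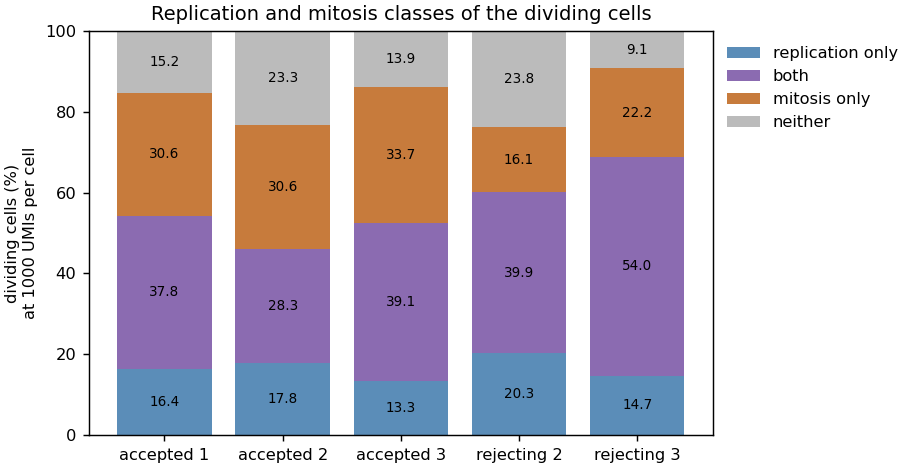
Share of dividing CD8 cells in 4 classes (replication genes only, both lists, mitosis genes only, neither; stacked bars, y axis in percent, at 1000 UMIs per cell) in each of the 5 libraries of 1-week grafts (x axis). The mitosis class is 30.6% to 33.7% in accepted and 16.1% and 22.2% in rejecting libraries.

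The mitosis and the replication class of the same library were also compared across all genes. Of 7146 genes tested by edgeR with the library as a block, 1282 passed, or 17.9%, with 607 higher (8.49%) and 675 lower (9.45%) in the mitosis class. Without accepted library 3 the count was 644, without the block 529, and with DESeq2 568. The count includes the lists that made the classes, of which 40 of 40 mitosis genes were higher and 26 of 27 replication genes lower. Of 16 tested histone genes 15 were higher in the mitosis class and none lower (median log2 1.19), although histones are made in S phase. The classes are named for their lists, and the phase of a cell was not measured. Of 17 tested genes of ribosome production 13 were lower in the mitosis class and none higher, and of 16 glycolysis genes 6 were lower and none higher. Of 18 genes of oxidative phosphorylation 2 were lower and none higher, and of 12 sterol genes 2 were higher and none lower. Nolc1, a nucleolar protein, averaged 69.2 CPM in the mitosis and 122 CPM in the replication class (log2 -0.94 ± 0.11, adjusted p = 8.6e-09). Gzmb averaged 1117 CPM against 1414 CPM (-0.39 ± 0.05, adjusted p = 6.4e-08). Bcl2 was lower in the mitosis class as well (-0.60, adjusted p = 1.1e-05), and so was Ccnd2, another cyclin of G1 phase (-0.67, adjusted p = 8.3e-05). Without the block Gzmb and Bcl2 lost their calls (adjusted p = 0.061 and 0.11). Quiescence and naive genes leaned the other way, with 6 of 13 and 4 of 12 tested genes higher in the mitosis class and 1 and 0 lower. Without the block 5 ribosome and 2 glycolysis genes were lower and 0 quiescence and 2 naive genes higher, and over all alternatives the last counts ranged from 0 to 8 and from 1 to 5. Klf2 averaged 96.7 CPM in the mitosis and 60.7 CPM in the replication class (log2 0.67 ± 0.09, adjusted p = 1.2e-06). Of 12 genes of class I antigen presentation 4 were higher and 1 lower, H2-K1 among the higher ones (0.28, adjusted p = 1.5e-05). Ccl5, Pdcd1, and Tox did not pass between the classes.

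Dividing cells of both models were also set against each other directly, 3 libraries against 2. Every difference of strain, of batch, and of the way genes were counted in the matrices enters here, and their parts were not tested. By plain totals 6566 of 11086 genes passed by edgeR (59.2%), 5219 higher (47.1%) and 1347 lower (12.2%) in rejecting grafts, and the median gene was shifted by 0.60 on the log2 scale. With TMM factors the calls were 3001 higher and 2901 lower, and with DESeq2 2492 and 2447, so the higher share fell from 79.5% to 50.8% and 50.5%. Differences are therefore given relative to the median gene. Klf2 was lower in rejecting dividing cells by 4.84, at the levels given above, and Ccl5 by 3.15 (TMM adjusted p = 2.7e-07 and 0.00073). Foxp1 and Foxo1, of the same list as Klf2, were higher by 0.83 and 0.88 (TMM adjusted p = 0.00028 and 0.0028). The chemokines Xcl1 and Ccl4 were lower by 2.44 and 2.31, and Srgn, the proteoglycan that holds granule contents, by 1.69. Entpd1 was higher by 2.47, at 234 and 246 CPM against 20.2 to 35.2 CPM (TMM adjusted p = 3.0e-06), and Pdcd1 by 0.48 (TMM adjusted p = 0.021). Ctla4, another inhibitory receptor, was lower by 0.78 (TMM adjusted p = 0.00053). Gzmb, Lag3, Il7r, and Cxcr6 did not pass with TMM factors or with DESeq2. The largest differences were in genes that 1 model hardly held. Gm37240, Sema3c, Gm26827, Gm36975, and 1600010M07Rik were at 110 to 278 CPM in rejecting dividing cells and at 0 to 0.25 CPM in accepted ones. Bcl2a1d, a member of a family of near-identical copies, and H2-Q7, a class I gene of the histocompatibility region, were at 87.4 to 144 and 461 to 721 CPM in accepted and at 3.43 to 6.31 and 89.1 to 128 CPM in rejecting dividing cells.

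The few dividing CD8 cells of the recipients' spleens, 60, 53, and 200 in accepted libraries, give a view of the same state outside the graft. Their Mki67 level was 798, 678, and 607 CPM. Pdcd1 was at 20.9, 24.5, and 27.9 CPM in them, against 237 to 276 CPM in dividing cells of accepted grafts. Tox was at 80.4, 52.4, and 67.0 CPM and Rgs1 at 112 to 140 CPM, against 145 to 180 and 338 to 478 CPM in the grafts. The granzymes stood in opposite order. Gzma was at 864, 510, and 999 CPM in spleen and 197 to 358 CPM in the graft, while Gzmb was at 387, 224, and 503 CPM in spleen and 774 to 1060 CPM in the graft. Klf2 was at 742, 573, and 719 CPM in spleen against 121 to 148 CPM in the graft. For each of these genes the ranges of spleen and graft did not overlap. B cell RNA was also higher in the spleen sums, with Cd79a at 127 to 545 CPM. These differences between tissues were not tested, nor was the part of B cell RNA in them. In rejecting recipients only 26, 2, and 20 spleen cells met the rule.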

How the data were processed

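Single-cell RNA-seq of sorted CD45+ cells used a droplet 3′ kit, and the authors mapped reads to mm10 with Cell Ranger (version not given in the sources used here), filtered cells on UMIs, genes, and mitochondrial content, and named CD8 T cells by hand from Seurat clusters. How doublets were treated is not given in those sources, and no doublet caller was run here. The deposited values were raw counts of UMIs per gene and cell. Counts of dividing and other CD8 cells were summed per library tag over the 19497 genes that the accepted and the rejecting matrix share (the latter lists 32285), giving 475170 to 16012176 UMIs per sum. edgeR 4.0.16 (quasi-likelihood, library totals, low genes filtered, library tag as a block) was the main test, and p-values were adjusted across the whole table (Benjamini-Hochberg). The block pairs the sums because both came from the same library. Comparisons between dividing cells of the models had no block. DESeq2 1.42.0, TMM factors, no filter, no block, thinning to 1000 UMIs, stricter rules, and leaving out libraries or cells were alternatives. The count without cells holding a Cd4 UMI was chosen after seeing the data. On data simulated for the accepted comparison (11686 genes), 83.2% of genes changed by 1 on the log2 scale were recovered, and for the rejecting comparison (11683 genes) 38.9%. Far fewer genes were changed there than were called in the data. All simulated sums shared 1 mean profile apart from the changed genes and a random library effect, so these recoveries hold for that setting only. Members and gene lists were chosen with earlier results of these data known. Genes were named as the members of each list with the highest level (up to 4), the rule genes, and the 5 highest and 5 lowest called genes per comparison with at least 100 CPM in a group, leaving out genes of mitochondria, of ribosomal proteins, and of antibody and T cell receptor chains and the members of the rule and cell cycle lists, so that cell cycle genes outside these lists could be named. Intervals cover counting error only. Some list members are not reported here.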

Additional observations from a re-analysis of the deposited data

Results flagged for a closer look

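The change with division differed between rejecting and accepted grafts in 22 named genes, by edgeR's test of the difference itself, which 0.482% of all 12041 genes passed. Of these 22 genes 10 were named as the highest and lowest called genes of this same comparison, so their number was set by that choice. The differences of log2 changes, rejecting minus accepted, were positive for 10 of them. They were 1.45 for Hist1h2be, 1.29 for Apoe, 1.20 for Hist1h1b, 1.01 for Hist1h1e, 0.97 for Hist1h1c, 0.93 for Hmgn1, 0.76 for Hist1h4d, 0.71 for AY036118, 0.68 for Snhg1, and 0.62 for Lars2. The negative ones were -2.27 for Tg, -1.76 for Tcf7, -1.58 for Cmss1, -1.50 for Fgf13, -1.42 for Ccnd3, -1.38 for Slamf6, -1.23 for Ifi214, -1.08 for Ifi27l2a, -0.90 for Ikzf2, -0.78 for Ccl5, -0.61 for Pdcd4, and -0.60 for Ctla4. Of these calls 1, that of Cmss1, was kept under every alternative.

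One library of accepted spleen at 3 weeks stood apart from the other libraries of its group, with 0.344% of CD8 cells meeting the rule at 1000 UMIs per cell. This was 1 cell of 291 (exact 95% binomial interval 0.00870% to 1.90%) against 0 cells in the other 4 libraries, so it rests on a single cell. Without thinning its share was 0.978%, inside the group's range of 0.302% to 1.47%. It was 1 of 3 groups tested in this way. The test weighs the gap to the next library against the range of the group. With 0 in all other libraries, any single cell sets a library apart, so the flag carries no weight here.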

How the results depend on the processing

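Of the named calls, 77 of 123 in the accepted and 45 of 109 in the rejecting comparison were kept under every alternative, 1 of 22 in the difference between them, 18 of 21 between the dividing cells of the models, and 34 of 62 between the mitosis and replication classes. Without the replicate block, which pairs both sums of a library, the counts of called genes were 2436 in accepted and 1186 in rejecting grafts, 4 for the difference, and 529 for the classes. With thinned cells they were 1801, 494, 11, and, for dividing cells of the models, 2634, from fewer genes tested. DESeq2 called 30 genes for the difference and 568 for the classes. The difference gave 92 genes with no filter and 19 without cells holding other-lineage UMIs. Leaving out 1 library gave 3375 to 4915 genes in accepted and 1011 (without rejecting library 3) to 2075 in rejecting grafts, 17 (without accepted library 1) to 98 (without accepted library 3) for the difference, 4179 to 6248 for the models, and 644 to 1346 for the classes. The cause of these shifts was not tested.

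Of all genes called in the main fits, 157 in accepted and 134 in rejecting grafts changed sign with thinned cells. Between dividing cells of the models 387 did so with DESeq2 and 377 with TMM factors. These 2 settings also moved the median gene, from 0.60 by plain totals to -0.016 and -0.012. Among named genes with a call, directions reversed in 7 cases. In the accepted comparison Hba-a1 was 0.81 against other cells with 0 rule genes and Id2 was 0.014 with thinned cells. In the rejecting one Hbb-bs was 2.80 without cells of other lineages and Tox was 0.022 with thinned cells. In the difference Apoe was -0.074 without those cells and Tcf7 was 0.71 without rejecting library 3 and -2.54 without library 2. Between dividing cells of the models Gzmb was -0.16 without rejecting library 3 and 0.52 without library 2.

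Without thinning, the mean share of dividing cells in accepted grafts was 36.3%. With 1 list gene required, the classes held 10.7% replication, 19.9% mitosis, 64.3% both, and 5.05% neither in accepted and 12.3%, 12.9%, 69.6%, and 5.16% in rejecting grafts. Without thinning they held 4.34%, 11.2%, 80.8%, and 3.62% and 6.46%, 9.72%, 78.3%, and 5.55%. The rejecting sums were the smallest, so smaller changes could be missed there.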
